A study of Oreochromis niloticus with 21 samples.

Results

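Liver was compared with kidney in Oreochromis niloticus, the Nile tilapia, a fish of warm fresh water, at 28, 18 and 10 °C. The 6 libraries were those labelled liver or kidney, 1 for each tissue and temperature, of 21 libraries from 7 tissues in the series. The fish were 6 months old and had 12 h to adapt to low temperature, per the labels, and 28 °C was the warm setting. Illumina TruSeq libraries were made from total RNA of frozen tissue. The labels name no strain or sex, and they do not say how many fish were pooled or whether 1 fish gave both organs. Of 17098 gene IDs in the files, 9688 were tested. These were the genes whose RPKM (reads scaled by gene length and a denominator of each library) reached 1 in 3 or more of the 6 libraries.

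The liver makes most plasma proteins, forms bile and holds the main store of glycogen, and in tilapia exocrine pancreas tissue lies within it. The kidney of bony fishes joins nephrons, which filter blood and move ions, with blood-forming tissue and steroid-producing interrenal cells. Either organ is a mixture of cell types, and in such bulk samples fewer cells of a type and less RNA per cell cannot be told apart. None of the gene IDs could be paired with a symbol, so the defining markers of hepatocytes, nephrons, blood-forming cells or pancreas could not be looked up in either organ. Genes are therefore given by ID, and no role is given to them.

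Reads on genes, recovered from the RPKM, numbered 1507953, 470889 and 530615 in liver at 28, 18 and 10 °C. In kidney they numbered 905142, 557584 and 3041530. The denominators behind the RPKM did not follow these numbers. At 28 °C the denominator was 1058183 in liver, below the reads on genes, and 2899478 in kidney, above them. RPKM levels and sums thus depend on the denominators as well as on the reads. For a gene of 1 kb, an RPKM of 1 stood on 0.828 to 1.06 reads in a liver library and on 2.01 to 7.38 in a kidney library. A tested gene had a median of 5 to 8 reads in a liver library and 18 to 72 in a kidney library. Liver at 28 °C stood apart from the other liver libraries. Its Spearman's rho with them over the tested genes was 0.660 and 0.647, against 0.793 between liver at 18 and 10 °C and 0.767 to 0.811 within kidney. Its RPKM values summed to 1028634, against 276809 and 335145 in the colder livers and 119849 to 159319 in kidney. The counts of called genes are given with and without it.

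The first comparison asked how the RNA of each organ was spread over genes. A larger share of reads lay in the 100 most abundant genes in liver than in kidney. The 100 most abundant genes held 68.3% of reads in liver at 28 °C, 53.0% at 18 °C and 59.9% at 10 °C. In kidney the 100 most abundant held 30.2%, 26.6% and 50.1%. All 3 liver libraries were above all 3 kidney libraries (60.4% ± 7.66 against 35.7% ± 12.6, SD, n = 3 temperatures; exact permutation p = 0.1, two-sided, the smallest that an unpaired 3 against 3 can give). The permutation tests here and below did not use the pairing by temperature. The widest 95% Wilson interval for any share of a library's reads was 0.143 percentage points either side, which covers counting error only. The top 10 genes gave no such order, with 31.0%, 21.4% and 28.9% in liver and 12.1%, 7.78% and 37.8% in kidney at 28, 18 and 10 °C. Kidney at 10 °C was above every liver library there (exact permutation p = 0.4, two-sided).

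The most abundant genes that together held 50% of reads numbered 36, 82 and 50 in liver at 28, 18 and 10 °C, and 438, 529 and 99 in kidney. The groups did not overlap (exact permutation p = 0.1, two-sided), and kidney at 10 °C stood nearest to liver. That library was led by ENSONIG00000002856, named here after its values were seen. It held 31.6% of the reads of kidney at 10 °C, but 0.154% and 0.489% of those at 28 and 18 °C. Its RPKM in kidney was 130, 369 and 35414 at 28, 18 and 10 °C. In liver it was 1367, 1506 and 1113. Liver was the higher organ for this gene at 28 and 18 °C and kidney at 10 °C.

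Fewer genes were found in liver than in kidney, also at equal depth. Thinned to 470889 reads, the liver libraries were calculated to hold 8648, 10973 and 9839 genes at 28, 18 and 10 °C and the kidney libraries 13498, 13146 and 12198. Thinned to 1 common RPKM denominator, the numbers were 10832, 10838 and 10074 in liver and 12396, 11760 and 11705 in kidney. By either measure each liver library lay below each kidney library (exact permutation p = 0.1, two-sided). An RPKM of 1000 was reached by 134, 44 and 59 genes in liver, and by 10, 4 and 6 in kidney. These last counts depend on the RPKM denominators too.

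**Figure D1:**
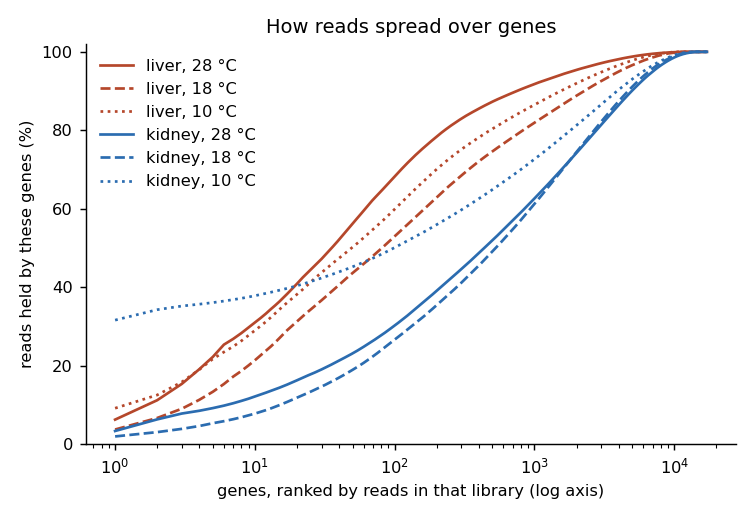
Percentage of each library's reads (y axis) held by its most abundant genes, ranked by reads in that library (x axis, log scale), for 3 liver libraries in red and 3 kidney libraries in blue. At rank 100 the liver curves lie between 53.0% and 68.3% and the kidney curves between 26.6% and 50.1%, and kidney at 10 °C starts at 31.6% because of 1 gene.

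The abundant genes were partly shared. Of the 100 genes with the highest mean level in liver, 45 were also among the 100 highest in kidney, 45% of each list. Among the top 10 the overlap was 1 gene, and among the top 500 it was 221 genes, or 44.2%. The shares that follow use this ranking by mean RPKM over 3 temperatures, and not the ranking by reads within each library used above. Liver at 28 °C, with the largest summed RPKM, weighs most in the liver mean. The 10 most abundant liver genes held 22.8%, 12.6% and 11.8% of liver reads at 28, 18 and 10 °C, but 0.111%, 0.295% and 0.10% of kidney reads. The 10 most abundant kidney genes held 10.6%, 5.17% and 36.5% of kidney reads, and 2.58%, 5.77% and 12.2% of liver reads. This contrast was one of the top 10 lists. The 100 most abundant liver genes held 16.04%, 10.8% and 40.1% of kidney reads, the last including ENSONIG00000002856, and the 100 most abundant kidney genes held 15.6%, 16.2% and 23.0% of liver reads.

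Across the series the liver profile was nearest to that of kidney. Over the 15312 genes whose RPKM reached 1 in 3 or more of the 21 libraries, the rho of liver with kidney was 0.545, 0.622 and 0.577 at 28, 18 and 10 °C. The mean rho of liver was 0.581 with kidney, 0.518 with spleen, 0.479 with heart, 0.429 with gill, 0.408 with muscle and 0.292 with brain. Kidney was the closest other tissue of liver at all 3 temperatures. The closest other tissue of kidney was liver at 18 °C, and it was heart at 28 and 10 °C, with a rho of 0.595 and 0.616. Within the 9688 tested genes, a gene set chosen on liver and kidney alone, the 9 liver-kidney pairs had a rho of 0.233 to 0.397. These are descriptions across genes, which are not independent replicates.

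The second comparison asked which genes differed between the organs whatever the temperature. limma, paired by temperature, called 2234 genes, or 23.1% of those tested, at an adjusted p under 0.05. Of these, 759 were higher in liver (7.83%) and 1475 were lower in liver (15.2%). Among the genes lower in liver, 827 (56.1%) passed the filter through kidney alone, and among those higher in liver 346 (45.6%) passed through liver alone, so they had to differ and their number is no support for a difference. Another 452 genes lower in liver reached an RPKM of 1 in all 3 kidney libraries and in 1 or 2 of liver. For 156 genes higher in liver the reverse held. In these too the organ in which they were high met the filter by itself. On the log2(RPKM + 1) scale, which understates the change of low genes, the genes higher in liver differed more. Their median was 2.94 (range 1.03 to 13.60). The genes lower in liver had a median of -2.04 (range -8.49 to -0.92). The median over all tested genes was -0.33. At least 4-fold differences on this scale were found for 595 called genes higher in liver (6.14%) and 770 lower (7.95%). The order depended on the scale. With a pseudocount of 0.1, 613 of 644 genes called higher and 1057 of 1076 called lower were at least 4-fold apart. With limma-voom, run on whole reads recovered from the RPKM, these were 812 of 945 and 1215 of 1289. The 3 libraries of a tissue differ in temperature, so these p-values measure spread over temperatures and single libraries and not over fish.

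The excess of calls lower in liver lay among lowly expressed genes. Among 5752 tested genes with a mean RPKM below 5, 2.82% were called higher in liver and 16.5% lower. Between 5 and 20, 8.55% of 2712 genes were higher and 14.3% lower. The next step, between 20 and 100, had 24.1% of 889 genes higher and 13.7% lower. Between 100 and 1000, 42.2% of 275 genes were higher and 6.18% lower. At 1000 or more, 35 of 60 genes (58.3%) were called higher in liver and 0 lower. The share called higher in liver thus grew with the level of the gene, and the share called lower was smaller at the upper levels. The mean over 6 libraries is lifted by the organ in which a gene is high, and RPKM summed to more in each liver library than in any kidney library.

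Depth moved with this pattern. Of the 1475 genes lower in liver, 367 had 0 reads in all 3 liver libraries and 1116 had fewer than 10 in the 3 together. The median was 3 liver reads. Of the 759 genes higher in liver, 126 had 0 reads in kidney and 310 had fewer than 10, with a median of 18 kidney reads. In all, 1026 tested genes passed the filter through kidney alone, with liver below an RPKM of 1 at all 3 temperatures, and 381 passed through liver alone. When 10 reads in 3 of the 6 libraries were required in place of the RPKM filter, a setting chosen after seeing the data, 697 genes were called higher in liver and 1566 lower. That filter too can be passed through kidney alone.

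Among the 4308 genes with an RPKM of 1 in all 6 libraries, which were refitted on their own, limma called 188 higher in liver and 164 lower. With the trend of each library on gene length removed, the calls over all tested genes were nearly even, at 996 higher and 1041 lower. The median over all genes moved from -0.33 to 0.03. That removal also centred each library near the mean of the 6, so it took out any organ-wide offset together with the trend. These values thus do not show the part of gene length. Median-of-ratios scaling gave 857 higher and 1261 lower with a median of -0.17, and upper-quartile scaling 683 higher and 2057 lower with a median of -0.57. Without the 28 °C libraries of both organs, 810 were higher and 1247 lower. Without the 10 °C libraries, 464 were higher and 710 lower. No gene called in 1 direction was called in the other under any of these settings.

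Gene length moved with the difference. Tested genes were cut at the quartiles of length. Up to 1528 bp the median difference was -0.11, and above 4081 bp it was -0.46. The share called higher in liver was 10.6% in the shortest group and 5.74% in the longest. The share called lower was 15.0% in the shortest and 15.5% in the longest. Short genes were thus called higher in liver more often than long ones, while calls lower in liver hardly varied with length.

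**Figure D2:**
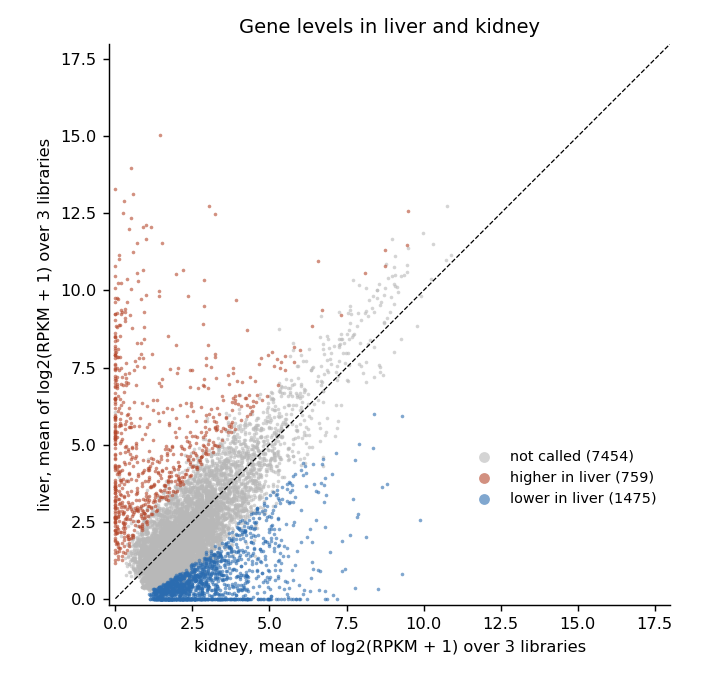
Mean log2(RPKM + 1) over 3 temperatures in kidney (x axis) and liver (y axis), 1 point per tested gene, with genes called by limma higher in liver (759) in red and lower in liver (1475) in blue. Called liver genes reach far above the dashed line of equal level, while most called kidney genes lie at low levels. Red points at a kidney level of 0 are the 126 called liver genes without kidney reads. Blue points at a liver level of 0 are the 367 called kidney genes without liver reads.

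The rule for naming gave the 2 called genes with the highest and the 2 with the lowest log2 difference whose libraries did not overlap. ENSONIG00000016153, a gene of 477 bp, had an RPKM of 147753, 14065 and 19037 in liver at 28, 18 and 10 °C and of 2.17, 3.13 and 0.568 in kidney. Its liver values rested on 74579, 5951 and 7522 reads and its kidney values on 3, 3 and 2. Every liver library was far above every kidney library, and the kidney values lay within those of the other tissues. The log2 difference was 13.60 (SE 0.76, limma adjusted p = 8.2e-05). Over the pooled reads the ratio was 48760, with a 95% interval of 24745 to 112945 for counting error. Outside liver its highest value was 179, in brain at 18 °C.

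ENSONIG00000017080, of 1425 bp, had an RPKM of 31444, 10925 and 12264 in liver and of 0.726, 0.350 and 0.190 in kidney. The kidney values rested on 3, 1 and 2 reads, so the groups were far apart but the kidney level was poorly fixed. The log2 difference was 13.49 (SE 0.52, limma adjusted p = 6.67e-05), and the ratio over pooled reads was 55893 (95% interval 25678 to 152308). In the 15 libraries of the other 5 tissues it reached 9.50 at most, in heart at 28 °C.

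On the kidney side, ENSONIG00000013623, of 641 bp, had an RPKM of 832, 412 and 728 in kidney at 28, 18 and 10 °C. In liver it had 4.42 at 28 °C, from 3 reads, and was listed at 0 at 18 and 10 °C. The log2 difference was -8.49 (SE 0.57, limma adjusted p = 0.000122), and the kidney-to-liver ratio over pooled reads was 415 (95% interval 142 to 2014). Its highest value in the other tissues was 5.12, in heart at 28 °C.

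ENSONIG00000012623, of 1982 bp, had an RPKM of 306, 246 and 664 in kidney and of 0.954, 0 and 0 in liver, the first from 2 reads. Its log2 difference was -8.21 (SE 0.55, limma adjusted p = 0.000122), with a ratio of 1406 (95% interval 389 to 11610). The highest value elsewhere was 2.97, again in heart at 28 °C. All 4 genes passed the threshold in each of the 14 settings that gave them a value, with limma adjusted p-values of at most 0.00252. They were picked as the most extreme of the called genes, so this is no further support for a difference. ENSONIG00000017080 and ENSONIG00000012623 also passed the filter through 1 organ alone, so they had to differ. For both kidney genes, the organ in which they were near absent had 0 reads in 2 of 3 libraries.

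Genes read in 1 organ and not at all in the other were found on both sides. Of 2039 genes with an RPKM of 5 in all 3 liver libraries, 84 (4.12%) had 0 reads in all 3 kidney libraries. Set against a floor of 3 reads over the kidney libraries together, these were at least 31.7-fold to 39349-fold higher in liver, and 73 of them at least 100-fold. Of 2528 genes with an RPKM of 5 in all 3 kidney libraries, 98 (3.88%) had 0 reads in liver. Their bounds ran from 5.93-fold to 242-fold, and 9 were at least 100-fold higher in kidney. The median bound was 840-fold for the liver genes and 25.9-fold for the kidney genes. By its RPKM denominators liver was the less deeply read organ, with a sum of 2773531 against 12287073 in kidney. A bound depends on this depth and also on the level of the gene in the organ where it was read. The part of each in the lower bounds of the kidney genes was not tested.

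Some genes were at least 4-fold apart at every temperature. There were 391 on the liver side (4.04% of those tested) and 425 on the kidney side (4.39%), and limma called 390 and 425 of them. They were chosen by that difference, so it is not a test. The 391 liver genes had a median RPKM of 92.8 in liver and 0.320 in kidney, and the 425 kidney genes one of 16.2 in kidney and 0.261 in liver. The liver genes took 63.0%, 49.1% and 50.05% of liver reads at 28, 18 and 10 °C, and 1.11%, 1.17% and 0.774% of kidney reads. The kidney genes took 13.4%, 12.8% and 9.36% of kidney reads, and at most 0.347% of liver reads. Lists of similar length thus held a much larger share of reads in liver than in kidney.

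The 2 lists also differed in the other 5 tissues, which the choice did not use. Of the 391 liver genes, 314 (80.3%) were at least 4-fold higher in liver than in each of the 5, and 9 (2.30%) were as high in another tissue. Of the 425 kidney genes, 203 (47.8%) were at least 4-fold higher in kidney than in each of the 5, and 58 (13.6%) were as high in another. An RPKM below 1 in all 15 other libraries was found for 118 of the liver genes (30.2%) and 86 of the kidney genes (20.2%). The share of all tested genes was 4.66%. The median of the liver genes was 0.214 to 0.322 in each of the 5 tissues. The median of the kidney genes was 0.716 in brain, 0.606 in gill, 0.458 in muscle, 0.433 in heart and 0.270 in spleen. For the kidney genes the highest other tissue was brain in 133 cases (31.3%, against 20.05% of all tested genes) and heart in 93 (21.9% against 16.7%). It was gill in 91 (21.4% against 24.1%), muscle in 67 (15.8% against 16.4%) and spleen in 41 (9.65% against 22.7%). Spleen was thus the highest other tissue of the kidney genes least often. The medians in all 5 tissues were below an RPKM of 1, and 1 tissue ranks first even where all are near 0. For the liver genes the highest other tissue was brain in 100 cases (25.6%) and spleen in 82 (21.0%). No test was made of the difference between the 2 lists. The liver genes stood higher in their own organ than the kidney genes did in theirs (median RPKM 92.8 against 16.2). A higher level leaves more room for a 4-fold margin over low values, and the part of level was not tested. The 4-fold counts over the 5 tissues were made for these 2 lists only.

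**Figure D3:**
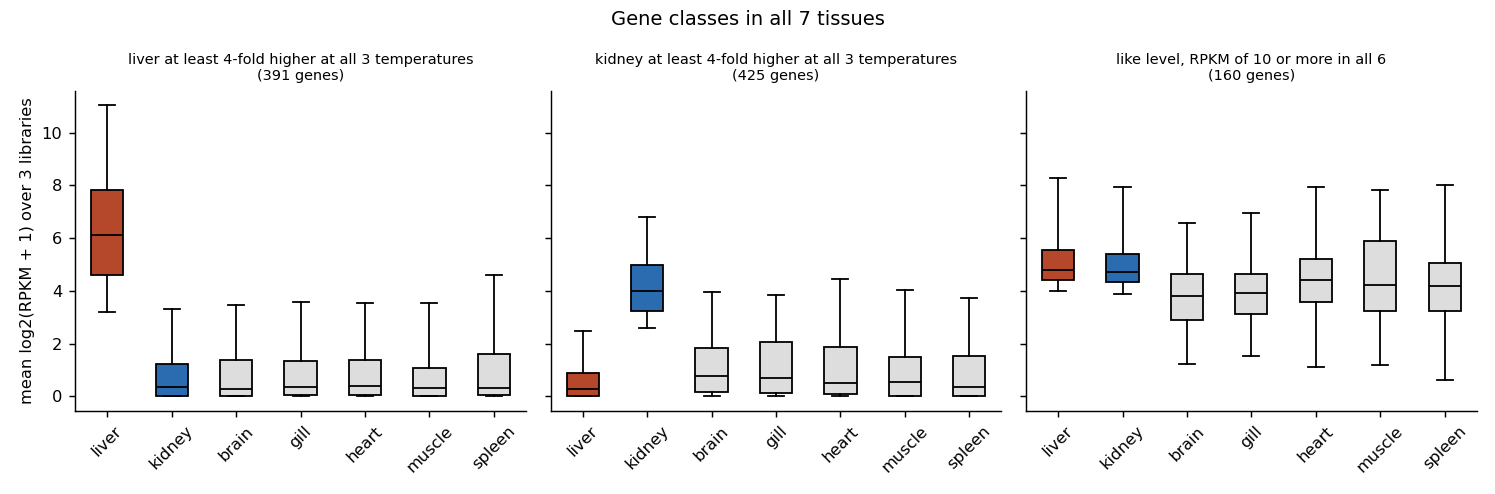
Mean log2(RPKM + 1) over 3 temperatures (y axis) in all 7 tissues for genes at least 4-fold higher in liver (391), at least 4-fold higher in kidney (425) and at like level (160), with the median as a line, the quartiles as a box and the 5th to 95th percentile as whiskers. The liver genes are low in the other 6 tissues, the kidney genes are low in the other 6 but less far below kidney, and the genes at like level are high in all 7.

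Genes at like level were defined by an RPKM of 10 in all 6 libraries and less than 2-fold between the organs at each temperature. There were 160, or 26.0% of the 616 genes with that level, and limma called 0 of them. They were chosen for small differences, so that 0 is not a test. Of the same 616 genes, 15 were at least 4-fold apart at all 3 temperatures. The 160 had a median RPKM of 28.0 in liver and 25.7 in kidney. In all 15 libraries of the other tissues, 136 of them (85.0%) had an RPKM of 1 or more. This was near the share of all 616 genes at that level (515 genes, 83.6%), so breadth did not set the like-level genes apart. Their median was 20.02 in heart, 17.7 in muscle, 17.01 in spleen, 13.98 in gill and 13.01 in brain.

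Of these, the 2 with the highest mean level were named. ENSONIG00000001504, of 2387 bp, had an RPKM of 2700, 555 and 496 in liver at 28, 18 and 10 °C and of 3869, 586 and 391 in kidney. It was highest at 28 °C in both organs, and the organs had a log2 difference of -0.08 (SE 0.56, limma adjusted p = 0.930). Its level was far higher in spleen, up to 24522. ENSONIG00000017838, of 648 bp, had 684, 525 and 1205 in liver and 642, 293 and 789 in kidney. It was lowest at 18 °C and highest at 10 °C in both, with a difference of 0.51 (SE 0.54, limma adjusted p = 0.534). The rule chose both for their likeness, and an adjusted p above the threshold does not show equal levels.

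The third comparison asked how the difference moved with temperature. It was widest at 28 °C. Among genes with an RPKM of 5 in either library of the pair, 71.1% of 5334 were at least 2-fold apart at 28 °C, 55.0% of 4693 at 18 °C and 59.1% of 4828 at 10 °C. Of those at 28 °C, 2058 (38.6%) were higher in liver and 1737 (32.6%) lower. At 18 °C the counts were 1304 (27.8%) and 1279 (27.3%). At 10 °C 1218 (25.2%) were higher in liver and 1633 (33.8%) lower. This last balance turned with the scaling. Median-of-ratios scaling gave 1434 higher and 1411 lower, and removal of the length trend gave 1541 higher and 1308 lower. The latter also took out the offset of each library, so its counts do not show the part of length. The balance at 10 °C turned with the level too. At an RPKM of 20 in either library, 609 were higher in liver and 406 lower at 10 °C, 598 and 351 at 18 °C, and 1244 and 436 at 28 °C. At least 16-fold differences numbered 416 higher and 192 lower at 28 °C, 280 and 105 at 18 °C, and 253 and 167 at 10 °C. With 1 library a side at each temperature these counts have no replicate check.

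The largest differences on the liver side narrowed from 28 °C to the colder libraries. In the 391 genes 4-fold higher in liver throughout, the median RPKM in liver was 107, 53.2 and 55.9 at 28, 18 and 10 °C, and the median difference 5.77, 4.53 and 4.62. In the 425 kidney genes the median RPKM in kidney was 16.9, 12.3 and 14.6, and the median difference -3.51, -3.15 and -3.40. In the 160 genes at like level it was 0.10, 0.16 and 0.17. The median over all tested genes was -0.42, -0.23 and -0.38. The kidney and like-level groups thus moved by less than the liver group.

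Most of the movement from 28 °C lay in liver. From 28 to 10 °C, 43.1% of tested genes changed at least 2-fold between the liver libraries and 15.4% between the kidney libraries. From 28 to 18 °C the shares were 42.4% and 16.3%. The difference between the organs moved at least 4-fold for 1570 genes from 28 to 10 °C, and liver was the organ that moved more in 1388 of these (88.4%). From 18 to 10 °C, where liver at 28 °C takes no part, 1875 genes changed 2-fold in liver and 1860 in kidney. The difference then moved 4-fold for 731 genes, and liver moved more in 60.1% of them. The excess of movement in liver over kidney was thus far larger in the steps that hold liver at 28 °C.

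In both steps from 28 °C the difference moved more often towards kidney. From 28 to 10 °C it moved at least 4-fold towards liver for 543 genes and towards kidney for 1027, and from 28 to 18 °C for 733 and 926. At 10 °C 64.6% of tested genes had fewer than 10 reads in liver, against 8.70% in kidney. The part of depth in these counts was not tested. Genes that changed in both organs were fewer than those that changed in 1. Of 1702 genes at least 2-fold higher in liver at 10 than at 28 °C, 150 (8.81%) were so in kidney, which is 28.5% of the 526 such kidney genes, while 17.6% of all tested genes were higher in liver. Of 2474 genes 2-fold lower in liver at 10 °C, 468 (18.9%) were so in kidney, or 48.2% of 970, while 25.5% of all tested genes were lower in liver. Another 94 genes were 2-fold higher in liver and 2-fold lower in kidney at 10 °C, and 101 were lower in liver and higher in kidney. Both steps from 28 °C share the 28 °C libraries.

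**Figure D4:**
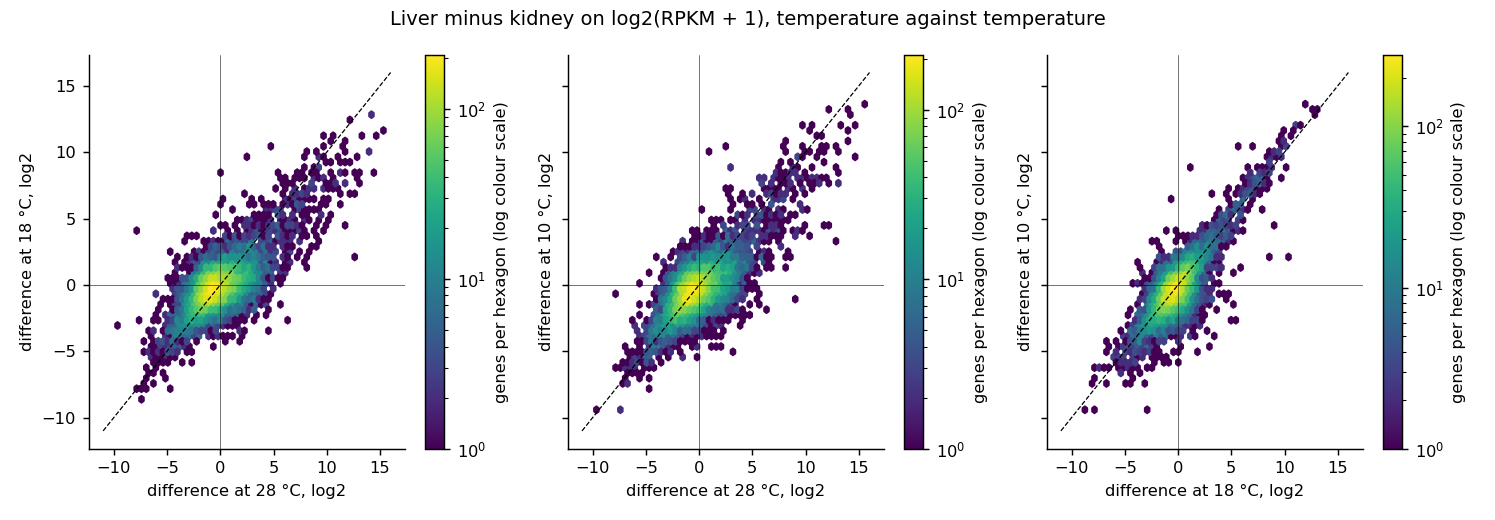
Liver minus kidney on log2(RPKM + 1) for 9688 tested genes at 28 against 18 °C, 28 against 10 °C and 18 against 10 °C, with the number of genes per hexagon on a log colour scale and a dashed line of equal difference. The panel of 18 against 10 °C lies closest to the line, with a Pearson's r across genes of 0.806 against 0.712 and 0.741 in the panels with 28 °C.

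Large differences carried over from temperature to temperature. The differences at 18 and 10 °C, which share no library, had a Pearson's r of 0.806 and a Spearman's rho of 0.633 across genes. The rho was 0.531 for 28 against 18 °C and 0.578 for 28 against 10 °C. The gene filter used these same libraries. By that filter, the 1026 genes passed through kidney alone and the 381 through liver alone kept 1 direction at all 3 temperatures. They are part of r, rho and the counts below, which are thus descriptions and not a test. Of 648 genes at least 4-fold higher in liver at 18 °C, 468 (72.2%) were so at 10 °C and 464 (71.6%) at 28 °C. The same 464 were 38.5% of the 1206 such genes at 28 °C, and 467 of these (38.7%) were so at 10 °C. Of 814 genes at least 4-fold higher in kidney at 18 °C, 541 (66.5%) were so at 10 °C and 506 (62.2%) at 28 °C. Of the 1246 such genes at 28 °C, 506 (40.6%) were so at 18 °C and 650 (52.2%) at 10 °C. For genes chosen at 18 °C most differences were thus of that size at 28 °C too, on both sides. Of those chosen at 28 °C a smaller share was so at 18 °C. These shares count the same genes, 464 for liver and 506 for kidney. They differ only because the lists at 28 °C were longer.

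Some genes changed sides. At least 2-fold higher in liver at 28 °C and at least 2-fold higher in kidney at 10 °C were 200 genes (2.06% of those tested). The reverse held for 111 genes (1.15%). Liver moved more than kidney in 188 of the 200 and in 96 of the 111. By this rule their difference moved at least 4-fold from 28 to 10 °C. Among all 1570 genes with such a move, liver moved more in 88.4%. At 18 °C 115 of the 200 were already higher in kidney, and 77 of the 111 were already higher in liver. In liver at 10 °C alone, 64.6% of all tested genes had fewer than 10 reads. No more than 18 and 15 of the genes that changed sides had 10 reads or more in all 6 libraries. Their median lengths were 1289 and 1645 bp, against 2562 bp for all tested genes.

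The fit of a straight line on temperature in each organ called 0 genes for a change of the difference (limma on 6 libraries, smallest adjusted p = 0.654). Without adjustment, 727 genes (7.5%) had a p under 0.05, 246 moving towards liver in the cold (2.54%) and 481 towards kidney (4.96%). limma-voom, run on whole reads recovered from the RPKM, called 0 as well, with a smallest adjusted p of 0.177. When all 21 libraries shared 1 estimate of spread, 26 genes were called, 6 towards liver and 20 towards kidney. Liver moved more than kidney in 25 of the 26, and 19 had fewer than 10 reads in a liver library. Of the 1570 genes whose difference moved at least 4-fold from 28 to 10 °C, liver moved more in 88.4%. In liver at 10 °C alone, 64.6% of all tested genes had fewer than 10 reads. Without liver at 28 °C, 0 were called and 432 passed unadjusted, in a fit chosen after seeing the data. With only 2 residual degrees of freedom in the fit of 6 libraries, a count of 0 does not show that the difference was steady.

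The genes with the smallest p-values were named, 2 in each direction. ENSONIG00000000044, of 252 bp, had an RPKM of 3.75, 44.7 and 1222 in liver at 28, 18 and 10 °C, from 1, 10 and 255 reads. In kidney it had 1.37 at 28 °C, from 1 read, and was listed at 0 at 18 and 10 °C. The difference between the organs thus widened from 1.00 to 5.52 and 10.26 on the log2 scale. The fitted change from 28 to 10 °C was 9.21 (SE 1.23, limma unadjusted p = 0.000166 and limma adjusted p = 0.654), and over all 21 libraries the limma adjusted p was 0.000764. No library of another tissue exceeded 2.0.

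ENSONIG00000007369, of 5339 bp, had an RPKM of 10.1, 112 and 473 in liver, from 57, 531 and 2093 reads, and stayed between 0.0761 and 0.388 in kidney. The difference was 2.998, 6.69 and 8.78 at 28, 18 and 10 °C. The fitted change was 5.82 (SE 0.96, limma unadjusted p = 0.000562 and limma adjusted p = 0.654), with an adjusted p of 0.00618 over all 21 libraries. It was at or below 0.615 in the other 5 tissues. Both genes were read mainly in liver, and their liver level was higher at each colder temperature.

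ENSONIG00000000370, of 440 bp, had an RPKM of 47.3, 2.56 and 0 in liver at 28, 18 and 10 °C, from 22, 1 and 0 reads. In kidney it had 2.35, 5.66 and 7.70. The difference passed from 3.85 through -0.90 to -3.12, so the organs changed places. The fitted change was -7.03 (SE 1.01, limma unadjusted p = 0.000248 and limma adjusted p = 0.654), and it was not called under any setting.

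ENSONIG00000012020, of 1123 bp, had an RPKM of 101, 8.03 and 1.07 in liver, from 120, 8 and 1 reads. In kidney it had 3.38, 3.11 and 9.65. The difference was 4.54, 1.14 and -2.36, so here too liver was higher at 28 °C and kidney at 10 °C. The fitted change was -6.87 (SE 1.08, limma unadjusted p = 0.000425 and limma adjusted p = 0.654). Among genes with an RPKM of 1 in all 6 libraries its limma adjusted p was 0.00224. In both genes the liver values at 18 and 10 °C stood on fewer than 10 reads.

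**Figure D5:**
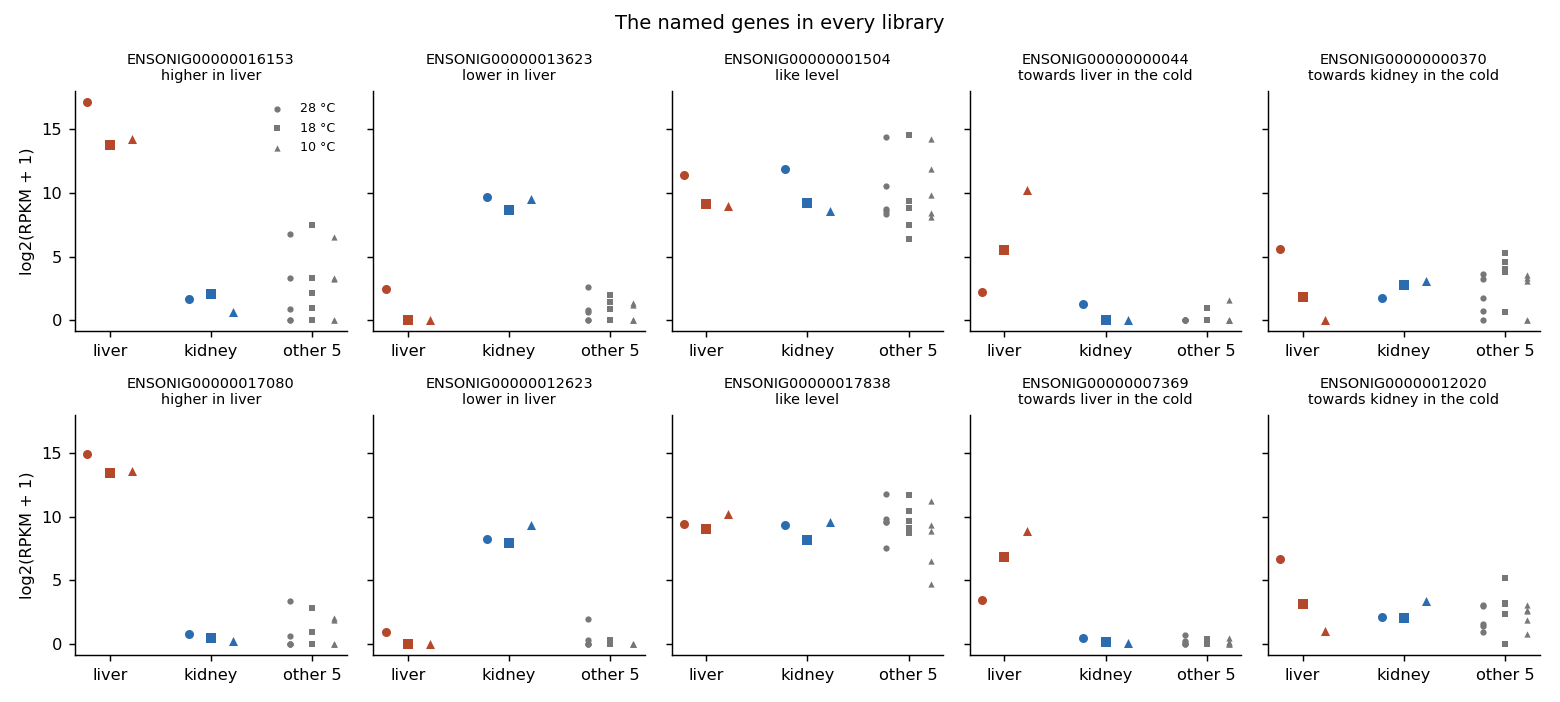
log2(RPKM + 1) of the 10 named genes in liver (red), kidney (blue) and the 15 libraries of the other 5 tissues (grey), with circles at 28 °C, squares at 18 °C and triangles at 10 °C. The pairs called higher and lower, at left, stay apart at every temperature, the like-level pair overlaps, and in the last 4 panels the liver values climb or drop with temperature while kidney moves less.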

How the data were processed

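RNA of 3 liver and 3 kidney libraries was compared. The authors deposited RPKM values per Ensembl gene ID, per the file headers. The submitters' processing notes list TopHat, Bowtie and HTSeq. Not given in the sources used here are versions, the genome build, the annotation and whether strand was used, so overlapping genes and near-identical copies may share reads.

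Each RPKM was a whole number of reads over gene length and a library denominator. Solving for these gave whole reads for 100% of values, within 1e-06, in 17094 of 17098 genes, and the other 4 were 0 in all libraries. Implied lengths had a median of 2646 bp. Reads on genes were 470889 to 3041530 per library. PCR duplicates could not be recognised, so intervals cover counting error only.

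Models were fitted to log2(RPKM + 1), a scale that understates the change of low genes, with limma 3.58.1 and its trended prior variance (R 4.3.3). The first model held tissue and a block of 3 temperatures, and the second a level and a slope for each tissue. Two-sided p-values were adjusted over 9688 genes by the Benjamini-Hochberg method, and the threshold was 0.05. Of the 7410 genes that did not pass the filter, 4539 were below an RPKM of 1 in all 6 libraries. Exact permutation tests, which were unpaired, and intervals used scipy 1.17.1 in Python 3.11.15.

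The members, rules and lists were chosen with earlier results of these data known. IDs had no symbols (0 matched the RefSeq table), so lists written as symbols could not be counted and no sequence is shown. By the naming rule, 2 IDs were given in each direction of each comparison, by the highest and lowest log2 difference among called genes whose libraries did not overlap, or by the smallest p where none was called, and 2 of the highest mean RPKM at like level. Alternatives covered scaling, filters, pseudocounts, gene length, limma-voom, the block and libraries left out.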

Additional observations from a re-analysis of the deposited data

Results flagged for a closer look

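The change of the liver-kidney difference with temperature passed the test under some settings and not in the fit of 6 libraries. Over all 21 libraries, limma called 26 genes, with changes of -10.20 to 9.21 on the log2 scale from 28 to 10 °C. All 26 had differences in temperature order, which a call for a straight line favours, so that order is no further support. Of the 26, 17 were also called higher in liver, against 7.83% of all tested genes. Kidney stayed below an RPKM of 1 at all 3 temperatures for 15, against 3.93% of all tested genes. Among genes with an RPKM of 1 in all 6 libraries, limma called 12, all towards kidney in the cold, of which 9 had fewer than 10 reads in a liver library. The liver level was lower at 10 than at 28 °C for 19 of the 26 and for all 12. Of the 26, 20 were called towards kidney in the cold. Liver moved more than kidney in 25 of the 26 and in 11 of the 12. A fall in liver thus largely follows from the direction of the calls and is no further support. Both settings called 2 of the same genes. Of all tested genes, 55.0%, 60.6% and 64.6% had fewer than 10 reads in liver at 28, 18 and 10 °C. The part of depth in these calls was not tested.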

How the results depend on the processing

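No gene called in the main comparison changed direction when called under another setting, and 88 recomputed values kept their side of the threshold or stayed within 1.5 times of the value given, while 15 moved further. Requiring an RPKM of 1 in all 6 libraries left 352 genes called, 188 higher and 164 lower in liver, with 150 and 107 at least 4-fold apart, and called 12 for a change with temperature. That filter tests fewer genes, and these held 254 of the genes called higher and 192 of those called lower in the main fit. In the fit on temperature, limma gave its prior variance 38.1 degrees of freedom with that filter and 4.77 in the main fit. The part of this in the 12 calls was not tested. With a pseudocount of 5, 358 genes were at least 4-fold higher and 211 at least 4-fold lower in liver, and limma-voom gave 1215 at least 4-fold lower. Fitting all 21 libraries called 26 genes for a change with temperature. The like-level count was 347 of 1248 genes at an RPKM of 5. Leaving out 1 temperature gave 1174 to 2057 called, 464 to 810 higher, 710 to 1256 lower, and 450 to 576 and 560 to 870 at least 4-fold apart, with the lowest totals without 10 °C. Without liver at 28 °C, 0 genes were called for a change with temperature and 432 passed unadjusted. Where no cause is named, the cause was not tested. Dropping the temperature block gave 712 higher and 1549 lower, of which 673 and 1374 were also called with the block. The block pairs libraries by temperature, and the labels carry no replicate numbers. The genes lower in liver had a median of 3 liver reads in all, so their liver levels are poorly fixed.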
